A study of Mus musculus with 6 samples.

Results

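The 35 genes described here encode the sensors of endoplasmic reticulum (ER) stress and the chaperones, disulfide isomerases, degradation factors and translocation factors that handle secreted and membrane proteins in the ER. They were taken by gene symbol from a list drawn up with earlier results of these data known, with no threshold on measured values, and all 35 were found among the 48440 genes of the deposited tables. RNA-seq libraries of small intestinal adenomas were compared, 3 from ApcMin, PCdel and 3 from ApcMin, WT mice. Every mouse carried the ApcMin allele, which causes intestinal adenomas, and a single *Rosa26* iDTA allele, in which a floxed stop cassette keeps diphtheria toxin A silent. PCdel mice also carried *Defa4*-Cre, an IRES-Cre cassette in a defensin locus used by Paneth cells (PCs), so that the toxin is made in the PC lineage and is meant to kill it. WT mice were littermates with the iDTA allele and without Cre. The mice were on the C57BL/6 background and older than 42 days, the Cre allele was made in embryonic stem cells of another strain and backcrossed, and the study used both sexes. QC4, QC5 and QC6 name the WT libraries, and QC3, QC8 and QC10 the PCdel libraries. The labels do not state that each library came from a separate mouse, nor how many adenomas it holds, so p-values measure the spread between these libraries.

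Secreted and membrane proteins enter the ER through the SEC61 channel and fold there with the help of chaperones such as BiP (*Hspa5*), and proteins that fail to fold are returned to the cytosol and degraded. When unfolded proteins build up, the sensors IRE1, PERK and ATF6 start the unfolded protein response, in which the transcription factors XBP1, ATF4 and cleaved ATF6 raise the expression of folding and degradation genes. PCs, goblet cells and plasma cells secrete large amounts of protein, and mouse intestinal PCs are among the cells known to depend on *Xbp1*.

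The tables give FPKM, the number of fragments scaled to the length of the transcript and to the size of the library. FPKM do not add up to the same total in every library. The total ran from 549225.1 in QC8 to 604974.3 in QC6, so levels in different libraries are comparable only up to such an offset. Results with TPM, quantile normalization and libraries set to a common median are therefore given as well. The depth behind the values was even, between 5.407 and 5.876 gigabases of aligned sequence per library. The tissue expressed *Epcam*, a marker of epithelial cells, at 735 to 1001 FPKM in every library. The PC marker *Lyz1* was at 1672, 2229 and 2281 FPKM in WT libraries and at 950.3, 1148 and 1082 FPKM in PCdel libraries, and its log2 fold change of -0.95 had a limma adjusted p of 0.979. In whole adenoma tissue, fewer cells of a type and less RNA per cell cannot be told apart. WT library QC6 stood apart from the others. It had the highest sum of enterocyte markers (29317 FPKM, against 11039.8 to 17345 in the other 5) and the lowest sum of epithelial markers (4313 FPKM, against 4987 to 6206). Its sum of Wnt target genes of adenomas was also the lowest (134 FPKM, against 201 to 257). The sum of PC markers was highest in it (13365 FPKM, against 4219 to 9601). Comparisons are therefore also given without QC6.

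Many of the 35 genes are known targets of the unfolded protein response, and the short promoter sequences through which this works can be read directly. Promoters from RefSeq (GRCm38.p6, from 250 bases before to 50 bases after the annotated start) were at hand for 28 of the 35 genes. The ER stress response element (ERSE), bound by ATF6 and XBP1 together with NF-Y, was searched on both strands as CCAAT, any 9 bases and CCACG. It was found in the promoters of 9 of the 28 genes (32.1%), against 39 of all 32851 promoters (0.119%). These 9 are *Calr*, *Canx*, *Creld2*, *Derl3*, *Dnajc3*, *Hsp90b1*, *Hspa5*, *Pdia6* and *Syvn1*. Here and below, the first count is of genes and the second of promoters, which include those of the 28 genes. The list holds many known targets, so the contrast is a description and no test. *Hspa5* is shown as the classical example, *Syvn1* because its match lies nearest to the start, *Calr* and *Creld2* because theirs lie on the opposite strand, and *Hsp90b1* because it holds a match on each strand. The related ERSE-II (ATTGG, any 1 base and CCACG) is shown for *Herpud1*. Each sequence runs 5′ to 3′ in the direction of its gene. Capitals mark the match, which on the opposite strand appears reversed, as CGTGG, 9 bases and ATTGG.
Hspa5 ERSE, chr2:34772020-34772048, plus strand: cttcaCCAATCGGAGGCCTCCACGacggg
Syvn1 ERSE, chr19:6046512-6046570, plus strand: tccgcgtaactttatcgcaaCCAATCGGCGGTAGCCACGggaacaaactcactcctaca
Calr ERSE, chr8:84847055-84847113, minus strand: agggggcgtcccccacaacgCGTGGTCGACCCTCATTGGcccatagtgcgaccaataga
Creld2 ERSE, chr15:88819500-88819558, plus strand: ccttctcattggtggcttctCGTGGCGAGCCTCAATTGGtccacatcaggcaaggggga
Hsp90b1 ERSE, distal, chr10:86705618-86705676, minus strand: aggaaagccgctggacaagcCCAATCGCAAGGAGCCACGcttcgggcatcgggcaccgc
Hsp90b1 ERSE, proximal, chr10:86705513-86705571, minus strand: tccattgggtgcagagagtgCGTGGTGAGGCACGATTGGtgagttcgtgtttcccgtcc
Herpud1 ERSE-II, chr8:94386357-94386407, plus strand: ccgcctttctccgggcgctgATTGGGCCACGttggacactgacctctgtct

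The *Hspa5* match is printed with 5 flanking bases, since the first exon of another annotated transcript covers it, and the others with 20. Its bases -65 to -47, counted with the RefSeq start as 0, hold the match, and those of *Syvn1* lie at -44 to -26. ERSE-II was found in the promoters of *Herpud1* and *Dnajb11*, against 12 of all promoters (0.037%). The amino acid response element bound by ATF4 (TGATGCAA) was found in *Herpud1* alone, against 294 of all promoters (0.895%). The unfolded protein response element TGACGTGG was found in 0 of the 28 and in 222 of all promoters (0.676%), which says only that these letters are not in these windows. A match is a description of the sequence and not a measured binding site. The 9 genes with an ERSE match had a median log2 fold change between the genotypes of 0.12, and the 19 with a promoter and no match had 0.10.

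**Figure D1:**
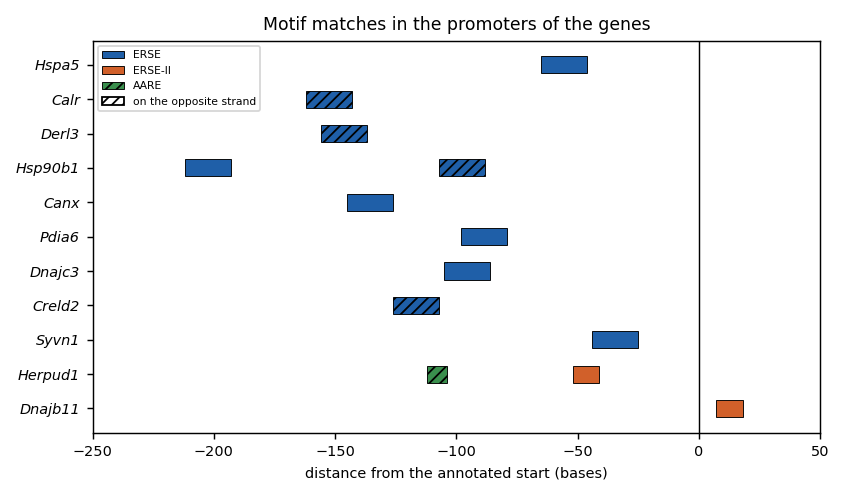
Positions of the motif matches in the promoters of the 11 genes that hold at least 1, as distance in bases from the RefSeq start at 0 (vertical line). Colors stand for the motif and hatching for a match on the opposite strand. All ERSE matches lie before the start, and the ERSE-II match of *Dnajb11* lies after it, at 7 to 17.

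The question put to these genes was whether adenomas of PCdel mice differ from WT adenomas in their ER folding machinery. None of the 35 passed the test. All 35 were tested, among the 14240 genes with a mean of at least 1 FPKM, with limma on log2(FPKM + 1) and Benjamini-Hochberg adjustment over all genes. At an adjusted threshold of 0.05, limma called 0 of the 35 and 0.0140% of all genes tested (2 genes). At an unadjusted threshold of 0.05 it gave 1 of the 35 (2.86%), *Sel1l*, against 3.38% of all genes (481 genes). The PCdel libraries all lay above the WT libraries for 3 of the 35 genes, *Xbp1*, *Eif2ak3* and *Sdf2l1*, or 8.57%, against 6.00% of all genes. They all lay below for 0 of the 35, against 1.54% of all genes. Exons of 11 of the 35 genes overlap those of another gene on the opposite strand, *Eif2ak3*, *Ddit3*, *Ppp1r15a*, *Hsp90b1*, *Dnajb9*, *Manf*, *Pdia3*, *Pdia6*, *Syvn1*, *Sec61a1* and *Ssr2*, and without the strand of the reads the partners cannot be told apart there. An exact two-sided permutation test of 3 libraries against 3 cannot give a p below 0.1 for any single gene.

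The differences were small and mostly of one sign. The log2 fold change (PCdel minus WT) was above 0 for 33 of the 35 genes (94.3%), against 63.1% of all genes, with *Ddit3* and *P4hb* as the exceptions. This count was 34 with quantile normalization, 30 when libraries were set to a common median and 26 without QC6, and the share of all genes above 0 was then 49.7%, 47.7% and 49.3%, respectively. With array quality weights the count was 29, against 53.0% of all genes, and with TPM it was 33, against 75.8% of all genes. The median over the 35 genes was 0.11, within a range of -0.11 to 0.57, and the median over all genes tested was 0.04 with quartiles of -0.05 and 0.13. Without QC6 the medians were 0.05 and 0.00. The 35 values of a library come from the same RNA, so the number of genes adds no replicates. The 95% interval of the log2 fold change stayed within 1 on either side of 0 for 33 genes, *Hspa5* and *Sel1l* being the exceptions, and within 0.5 for 25.

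**Figure D2:**
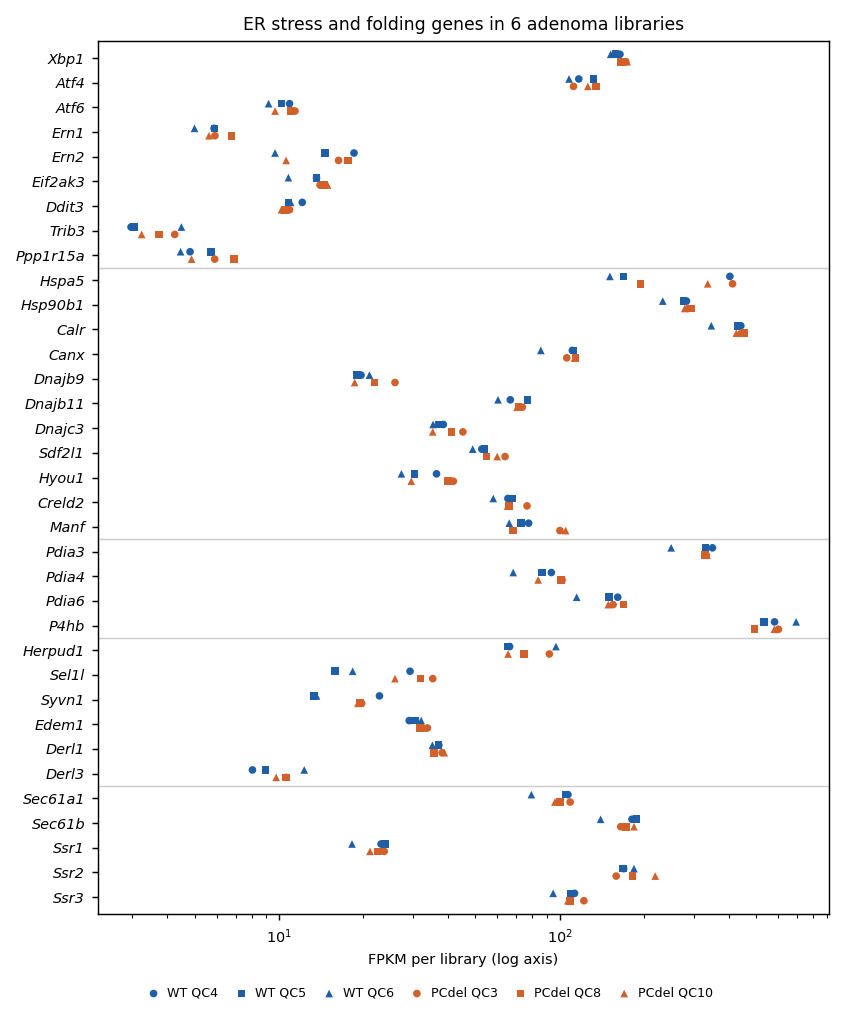
FPKM of the 35 genes in each library on a log axis, WT libraries in blue and PCdel libraries in orange, with grey lines between the groups of genes by role. The points of the 2 genotypes interleave for 32 of the 35 genes, and *Hspa5* spreads most among libraries of one genotype.

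Summed over the 35 genes, expression came to 3921, 3565 and 3301 FPKM in WT libraries and to 4030.5, 3676 and 3867 FPKM in PCdel libraries. The sums of the 2 genotypes overlapped, with a mean of 3596 ± 311 FPKM (SD, n = 3) for WT and 3858 ± 177 FPKM (SD, n = 3) for PCdel. The WT mean took 0.615 ± 0.0706% of all FPKM and the PCdel mean 0.685 ± 0.0217%. A single gene, *Hspa5*, accounted for part of this spread, since without it the sums were 3354 ± 188 and 3544 ± 68.9 FPKM.

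The sensors and regulators differed little. *Xbp1*, the transcription factor activated by IRE1 through splicing (chromosome 11, 5520659 to 5525893 in GRCm38), was the most abundant of them, at 164, 158 and 152 FPKM in WT libraries and 172, 165 and 174 FPKM in PCdel libraries. Every PCdel library was above every WT library, but the nearest of them, QC8 and QC4, were at 165 and 164 FPKM. The genotypes differed by a log2 fold change of 0.11 (standard error 0.10, 95% interval -0.13 to 0.34, limma adjusted p = 1.0). The tables give 1 value per gene, so the spliced and unspliced forms of *Xbp1* cannot be told apart. *Eif2ak3*, which encodes PERK (chromosome 6, 70844515 to 70905245), was at 13.6, 13.6 and 10.8 FPKM in WT libraries and at 14.0, 14.5 and 14.9 FPKM in PCdel libraries. The groups again did not overlap, and the log2 fold change was 0.19 (standard error 0.12, limma adjusted p = 1.0), or 0.08 without QC6, the lowest library for this gene.

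The other sensors overlapped between the genotypes. *Ern1*, which encodes the widely expressed IRE1α, ranged from 5.0 to 5.89 FPKM in WT and from 5.63 to 6.77 FPKM in PCdel libraries. *Ern2*, its paralog IRE1β of mucosal epithelium, was at 18.5, 14.6 and 9.68 FPKM in WT libraries and 16.3, 17.6 and 10.6 FPKM in PCdel libraries. It was low in 1 library of each genotype, QC6 and QC10. In these 2 libraries the summed goblet cell markers were at 7397 and 8905 FPKM. They were at 7212 to 8915 FPKM in the other 4, so the sum did not follow *Ern2*. Of the 8 markers in this sum, *Muc2* and *Spdef*, picked after their values were seen, were each lowest in QC6 and QC10. *Muc2* was at 206 and 147 FPKM there, against 296 to 600.3 FPKM elsewhere. *Spdef* was at 19.1 and 19.4 FPKM, against 25.5 to 31.5 FPKM. The other goblet markers were not read singly, so these 2 do not stand for the list, whose sum was not low in QC10. The part of goblet cells in the *Ern2* values was not tested. The log2 fold change of *Ern2* was 0.07 with a 95% interval of -0.58 to 0.71, and -0.17 without QC6. *Atf6* ranged from 9.18 to 10.9 FPKM in WT libraries and from 9.68 to 11.4 FPKM in PCdel libraries.

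Downstream of the sensor, 4 genes of the PERK branch were read as transcripts, which do not show how active the branch was. *Atf4*, the transcription factor whose translation rises when PERK is active, was at 117, 132 and 108 FPKM in WT libraries and at 112, 135 and 126 FPKM in PCdel libraries. *Ddit3*, which encodes the ATF4 target and cell death regulator CHOP, was at 12.1, 10.8 and 11 FPKM and at 10.9, 10.5 and 10.2 FPKM, respectively, a log2 fold change of -0.09 (95% interval -0.31 to 0.13). *Trib3*, a CHOP target, was the least expressed of the 35 genes, at 2.97, 3.05 and 4.49 FPKM in WT libraries and 4.25, 3.73 and 3.24 FPKM in PCdel libraries. *Ppp1r15a* (GADD34), which ends the translation block by PERK, ranged from 4.46 to 5.72 FPKM and from 4.88 to 6.93 FPKM. Values of these 4 genes overlapped between the genotypes. Of the 9 sensors and regulators, 0 were called, 8 had a log2 fold change above 0, and the median was 0.09.

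Among the chaperones, *Hspa5* varied more between libraries than between genotypes. *Hspa5* encodes BiP, the ER member of the HSP70 family and the usual marker of ER stress (chromosome 2, 34771970 to 34777547). In WT adenomas QC4, QC5 and QC6 had 404, 169 and 151 FPKM, and in PCdel adenomas QC3, QC8 and QC10 had 413, 194 and 337 FPKM. Both genotypes held high and low libraries, with a highest value 2.67 times the lowest among WT and 2.13 times among PCdel libraries. The mean was 241 ± 141 FPKM (SD, n = 3) in WT and 315 ± 111 FPKM (SD, n = 3) in PCdel adenomas, and the log2 fold change of 0.46 had a 95% interval of -0.59 to 1.51 (limma unadjusted p = 0.33, adjusted p = 1.0). This interval leaves room for a rise or a fall that the 6 libraries could not show. Across the alternatives its log2 fold change ranged from 0.20, without QC6, to 0.90.

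No other chaperone spread as widely within a genotype. *Hsp90b1* (GRP94), the ER member of the HSP90 family, was at 283, 276 and 233 FPKM in WT libraries and 287, 295 and 279 FPKM in PCdel libraries. *Calr* and *Canx* encode the lectin chaperones calreticulin and calnexin, which hold newly made glycoproteins. *Calr* was at 442, 429.8 and 347 FPKM in WT libraries and at 444, 453 and 426 FPKM in PCdel libraries. *Canx* was at 111, 112 and 85.7 FPKM and at 106, 114 and 113 FPKM, respectively. In all 3 genes QC6 was the lowest library, and without it the log2 fold changes fell from 0.13, 0.12 and 0.12 to 0.04, 0.01 and -0.01.

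*Sdf2l1*, a small ER protein that works with BiP and its J-domain partners (chromosome 16, 17130138 to 17132383), was at 52.8, 54.0 and 49.0 FPKM in WT libraries and at 63.9, 54.8 and 59.9 FPKM in PCdel libraries. The groups did not overlap, and their means were 51.9 ± 2.57 FPKM (SD, n = 3) for WT and 59.6 ± 4.57 FPKM (SD, n = 3) for PCdel. A log2 fold change of 0.19 (standard error 0.10, 95% interval -0.06 to 0.44, limma unadjusted p = 0.108, adjusted p = 1.0) was found, which stayed between 0.14 and 0.25 in the alternatives. *Manf*, a secreted ER stress protein (chromosome 9, 106838312 to 106891979), was at 77.5, 72.9 and 66.1 FPKM in WT libraries and at 100.2, 68.3 and 105 FPKM in PCdel libraries. QC3 and QC10 were high and QC8 lay within the WT range, and the log2 fold change was 0.31 (standard error 0.18, limma unadjusted p = 0.132, adjusted p = 1.0). The annotated exons of *Manf* overlap those of other genes on both strands, and reads from them may be counted with it.

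The J-domain proteins, which deliver clients to BiP, were measured through *Dnajb9*, *Dnajb11* and *Dnajc3*. *Dnajb9*, a sensitive target of XBP1, ranged from 19 to 21 FPKM in WT libraries and from 18.6 to 25.9 FPKM in PCdel libraries. *Dnajb11* ranged from 60.3 to 76.9 FPKM and from 70.5 to 73.6 FPKM, and *Dnajc3*, which also inhibits PERK, from 35.4 to 38.5 FPKM and from 35.3 to 45.2 FPKM. QC3 was the highest library for *Dnajb9* and *Dnajc3*, and QC10 was the lowest for both, so the PCdel libraries spread to either side of the WT libraries. *Hyou1* (GRP170), the nucleotide exchange factor of BiP, was at 36.4, 30.4 and 27.3 FPKM in WT libraries and 41.8, 39.9 and 29.6 FPKM in PCdel libraries. *Creld2* ranged from 58.0 to 67.9 FPKM and from 65.2 to 76.5 FPKM. Of the 11 chaperones and their partners, 0 were called, all 11 had a log2 fold change above 0 with all 6 libraries, and the median was 0.13.

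**Figure D3:**
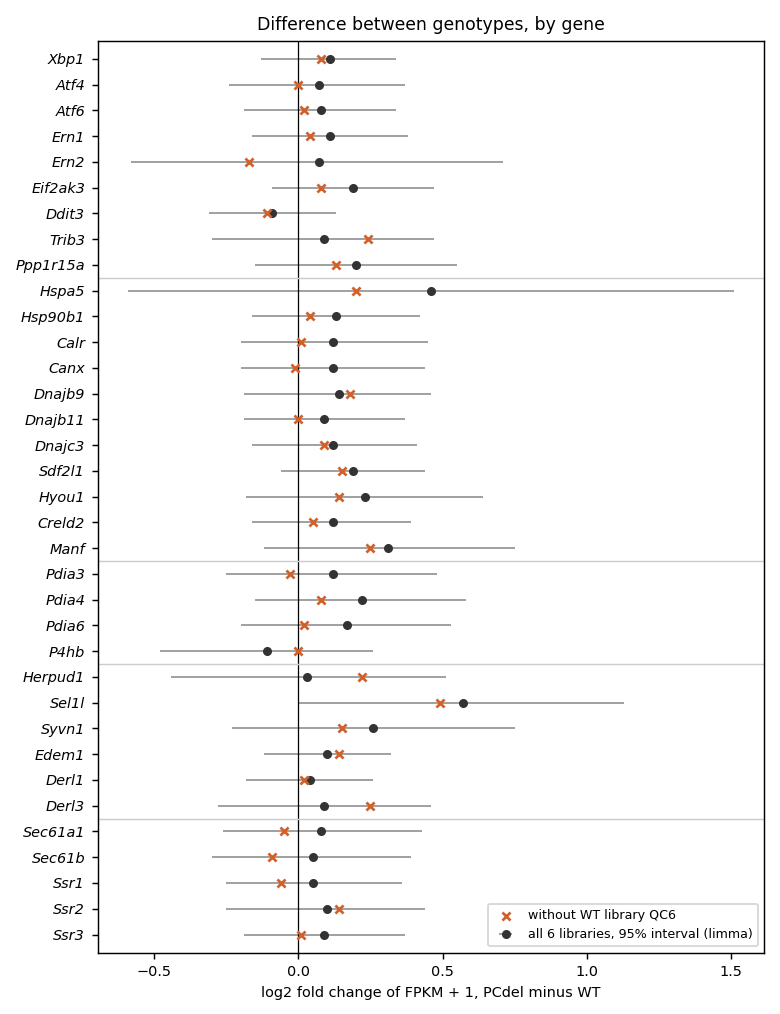
Log2 fold change of FPKM + 1 (PCdel minus WT) for each gene, with all 6 libraries as black points with 95% limma intervals, and without WT library QC6 as orange crosses. Only the interval of *Sel1l* begins at 0.00, all others cross 0, and the cross lies to the left of the point for 28 of the 35 genes.

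The disulfide isomerases were among the most abundant of the 35 genes, and they too overlapped between genotypes. *Pdia3* (ERp57), which acts with calreticulin and calnexin, was at 350.2, 330.4 and 249.6 FPKM in WT libraries and at 333, 329 and 335 FPKM in PCdel libraries. *Pdia4* ranged from 68.3 to 93.4 FPKM in WT and from 83.8 to 102 FPKM in PCdel libraries, and *Pdia6* from 115 to 161 FPKM and from 149 to 169 FPKM. QC6 was the lowest library for these 3 genes. *P4hb*, which encodes protein disulfide isomerase itself, behaved otherwise. It was the most abundant of the 35 genes, at 583, 535 and 696 FPKM in WT libraries and 602, 494 and 582 FPKM in PCdel libraries, and QC6 was its highest library. P4HB is also a subunit of the microsomal triglyceride transfer protein of enterocytes, and QC6 was the library with the highest sum of enterocyte markers, as given above. The part of enterocytes in the *P4hb* value was not tested. The log2 fold change of *P4hb* was -0.11 (95% interval -0.48 to 0.26) and 0.00 without QC6. Of the 4 isomerases 0 were called, and their median was 0.14.

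In ER-associated degradation, *Sel1l* had the largest difference and the lowest p-value of the 35 genes. *Sel1l* encodes the adaptor of the HRD1 ubiquitin ligase, which draws misfolded proteins out of the ER (chromosome 12, 91806043 to 91849157). In WT adenomas QC4, QC5 and QC6 had 29.3, 15.8 and 18.3 FPKM, and in PCdel adenomas QC3, QC8 and QC10 had 35.3, 31.9 and 25.9 FPKM. WT library QC4 lay within the PCdel range, and the other 2 WT libraries lay below every PCdel library. The mean was 21.1 ± 7.17 FPKM (SD, n = 3) in WT and 31 ± 4.76 FPKM (SD, n = 3) in PCdel adenomas, so that PCdel adenomas had 147% of the WT level. Limma gave a log2 fold change of 0.57 (standard error 0.24, 95% interval 0.00 to 1.13, limma unadjusted p = 0.0489, adjusted p = 1.0). It ranged from 0.39 to 0.82 in the alternatives, with adjusted p between 0.522 and 1.0.

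*Syvn1*, which encodes HRD1 itself, was at 22.8, 13.3 and 13.6 FPKM in WT libraries and at 19.7, 19.4 and 19.1 FPKM in PCdel libraries. As for *Sel1l*, QC4 was the highest of the WT libraries and the other 2 lay below all PCdel libraries. For *Syvn1* the log2 fold change of 0.26 had a 95% interval of -0.23 to 0.75. *Herpud1*, a stress-induced partner of HRD1, was at 66.3, 65.3 and 97.0 FPKM in WT libraries and at 91.9, 74.6 and 65.5 FPKM in PCdel libraries, and its log2 fold change of 0.03 was 0.22 without QC6, the highest library. *Edem1*, which marks glycoproteins for degradation, ranged from 29.1 to 32.1 FPKM and from 31.8 to 33.8 FPKM. The derlins form part of the channel out of the ER. *Derl1* ranged from 35.2 to 37.1 FPKM in WT and from 35.6 to 38.8 FPKM in PCdel libraries, and *Derl3* from 8.04 to 12.3 FPKM and from 9.77 to 10.6 FPKM. Of the 6 degradation genes, 0 were called, all 6 had a log2 fold change above 0 with all 6 libraries, and the median was 0.10.

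The 5 translocation genes had the lowest median log2 fold change of the groups by role, 0.08, and 0 were called. *Sec61a1*, the pore of the translocon, was at 107, 105 and 79.3 FPKM in WT libraries and at 109, 100.5 and 96.2 FPKM in PCdel libraries. *Sec61b*, its β subunit, ranged from 139.9 to 188 FPKM and from 165 to 184 FPKM. The genes *Ssr1*, *Ssr2* and *Ssr3* encode subunits of the translocon-associated protein complex. *Ssr1* ranged from 18.2 to 23.9 FPKM in WT and from 21.1 to 23.7 FPKM in PCdel libraries, and *Ssr3* from 94.8 to 113 FPKM and from 107 to 122 FPKM. *Ssr2* was at 169, 168 and 184 FPKM in WT libraries and at 159, 182 and 219 FPKM in PCdel libraries. QC6 was the lowest library for 4 of these 5 genes, and the log2 fold changes without it were -0.05 for *Sec61a1*, -0.09 for *Sec61b*, -0.06 for *Ssr1*, 0.14 for *Ssr2* and 0.01 for *Ssr3*. With all 6 libraries they lay between 0.05 and 0.10. Transcripts of *Sec61b* share 23.5% of their 31-base stretches with another gene, and those of *Ssr2* share 15.0%, so part of their reads could belong to those other genes.

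Of the libraries left out in turn, QC6 changed the direction of the largest number of genes, with 26 of the 35 above 0 without it against 31 or 32 without any other. QC6 was the lowest of the 6 libraries for 24 of the 35 genes, and for 46.1% of all genes tested. Measured gene by gene against the mean of the 6 libraries, the 35 genes had a median log2 deviation of 0.01 in QC4, -0.01 in QC5 and -0.21 in QC6, and of 0.10 in QC3, 0.05 in QC8 and 0.01 in QC10. The median over all genes tested was -0.13 in QC6 and between 0.00 and 0.03 in the other 5. QC3 was the highest library for 12 of the 35 genes and for 16.1% of all genes. QC6 was the highest for 4 of the 35 and for 12.5% of all genes, and the 4 were *Trib3*, *P4hb*, *Herpud1* and *Derl3*.

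**Figure D4:**
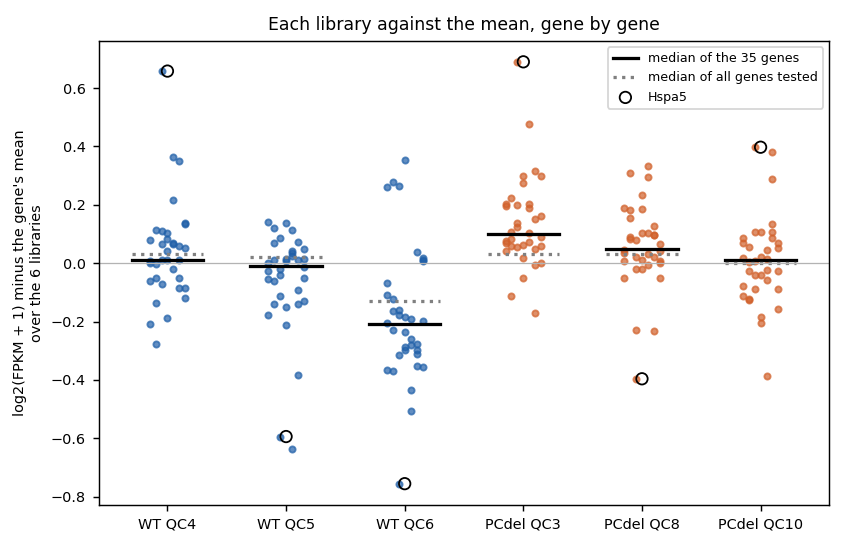
Deviation of each of the 35 genes in each library from that gene's mean over the 6 libraries, in log2(FPKM + 1), WT in blue and PCdel in orange. Black bars are medians of the 35 genes, dotted bars medians of all genes tested, and open circles *Hspa5*. QC6 has the lowest median (-0.21), and *Hspa5* lies at or next to the top or bottom edge of every library.

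Cell type markers were read beside these values, and their part in the differences was not tested. The summed PC markers were at 6378 to 13365 FPKM in WT and 4219 to 7216 FPKM in PCdel libraries, so the ranges overlapped. Of the 10 markers, 3 (*Lyz1*, *Defa21* and *Defa22*) were lower in every PCdel library, against 1.54% of all genes. Limma gave 6 of the 10 at the unadjusted threshold, against 3.38% of all genes, and called 0 at the adjusted threshold. The paper names the same 3 markers as low in PCdel adenomas from this RNA-seq. The list was chosen with earlier results of these data known, so these counts are not independent evidence. The other secretory cell types overlapped between genotypes. Summed goblet markers were at 7397 to 8915 and 7212 to 8905 FPKM, plasma cell markers at 19019 to 28773 and 21852 to 24897 FPKM, and enteroendocrine markers at 30.8 to 55.8 and 35.5 to 49.0 FPKM. Enterocyte markers were at 12101 to 29317 and 11039.8 to 17345 FPKM, epithelial markers at 4313 to 6206 and 4987 to 6196 FPKM, and Wnt target genes of adenomas at 134 to 257 and 201 to 257 FPKM. Fibroblast and smooth muscle markers were at 407 to 537 FPKM in WT libraries and at 464 to 670.5 FPKM in PCdel libraries. Of these 9 markers, 1 (*Dcn*) was higher in every PCdel library, against 6.00% of all genes. None of these markers was listed at 0 in any library. The plasma cell gene *Jchain*, which joins the chains of secreted antibodies, was at 1182, 1133 and 2012 FPKM in WT libraries and at 1547, 1201 and 1383 FPKM in PCdel libraries, so QC6 was highest in plasma cell markers while it was lowest for most of the 35 genes.

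The rest of the secretory pathway was read from 7 further lists with 131 genes, of which 128 were tested. Of these, limma called 0 at the adjusted threshold. At the unadjusted threshold it gave 2 (1.56%), *Ube2g2* and *Sec61g*, against 3.38% of all genes. The PCdel libraries all lay above the WT libraries for 1 of the 128 (0.781%), against 6.00% of all genes. They all lay below for 3 (2.34%), against 1.54% of all genes. The log2 fold change was above 0 for 87 of the 128 (68.0%), against 63.1% of all genes. Their median was 0.04, as it was over all genes tested. *Ube2g2* is the ubiquitin-conjugating enzyme that serves the ER ligase GP78. It was at 22.7, 21.9 and 19.2 FPKM in WT libraries and at 5.99, 11.3 and 6.59 FPKM in PCdel libraries. All PCdel libraries lay below all WT libraries, with means of 7.95 ± 2.89 FPKM (SD, n = 3) and 21.3 ± 1.83 FPKM (SD, n = 3). Its log2 fold change was -1.36 (standard error 0.22, limma unadjusted p = 0.000548), and the adjusted p was 0.712, or between 0.0786 and 0.998 in the alternatives. An annotated gene, *Gm49325*, overlaps *Ube2g2* on the same strand and can take reads from it.

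*Sec61g*, the γ subunit of the translocon, was at 55.4, 72.1 and 50.5 FPKM in WT libraries and at 95, 90.6 and 116 FPKM in PCdel libraries. Its log2 fold change was 0.76 (standard error 0.17, limma unadjusted p = 0.00318, adjusted p = 1.0). All PCdel libraries lay above all WT libraries in FPKM, but not in read coverage. Coverage divided by library depth was 23.6, 26.3 and 20.8 in WT libraries and 26.4, 24.9 and 30.2 in PCdel libraries, a log2 fold change of 0.20 (limma unadjusted p = 0.155). Transcripts of *Sec61g* share 15.7% of their 31-base stretches with other genes.

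The same second reading by coverage gave like values for most of the 35 genes. The difference by coverage was 0.48 for *Hspa5*, 0.60 for *Sel1l* (limma unadjusted p = 0.0491) and 0.35 for *Manf* (limma unadjusted p = 0.0736) on the log2 scale, and 33 of the 35 were again above 0. For *Ssr2* it was 0.00, against 0.10 by FPKM. Scaled coverage of *Hspa5* was 223, 85.6 and 74.2 in WT libraries and 205, 102 and 185 in PCdel libraries, so QC4, QC3 and QC10 were the high libraries in both readings.

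**Figure D5:**
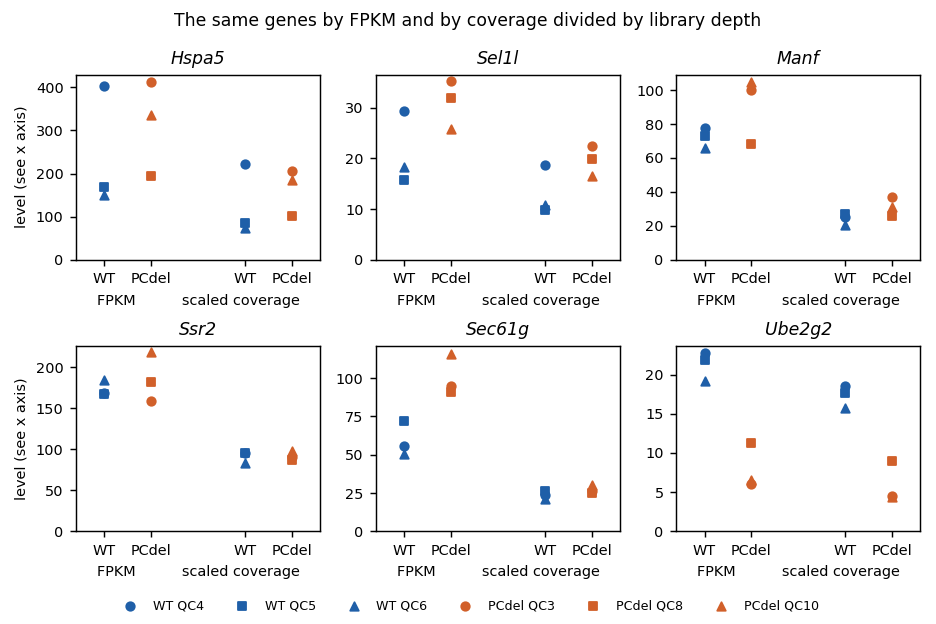
FPKM (left of each panel) and coverage divided by library depth (right of each panel) for 4 of the 35 genes, *Hspa5*, *Sel1l*, *Manf* and *Ssr2*, and for *Sec61g* and *Ube2g2*, with 1 point per library. The low PCdel values of *Ube2g2* appear in both readings. For *Sec61g*, all PCdel values lie above all WT values in FPKM only.

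In the 7 lists, the other genes with the lowest p-values also overlapped between genotypes. Among ATF4 targets, *Atf3*, a stress-induced transcription factor, was at 12.9, 11.2 and 10.5 FPKM in WT libraries and at 10.7, 33.1 and 19.5 FPKM in PCdel libraries, and its log2 fold change of 0.69 (95% interval -0.17 to 1.55) rested on QC8 and QC10. *Nupr1*, a stress-induced chromatin protein, was at 19.7, 22.7 and 20.1 FPKM and at 12.1, 22.1 and 8.98 FPKM, a log2 fold change of -0.59 (95% interval -1.29 to 0.10). The 19 ATF4 targets had a median of 0.00, with 11 above 0 and 8 at or below it. Of the other sensors and regulators, *Traf2*, which links IRE1 to kinase signaling, had a log2 fold change of 0.15 and *Atf6b*, the paralog of *Atf6*, 0.17. Among 19 oxidative folding genes tested, the disulfide isomerase relatives *Tmx3* and *Txndc5* had 0.14 and 0.15. Among 14 genes of N-glycosylation tested, *Tusc3* and *Rpn1*, both of the oligosaccharyltransferase, had 0.27 and -0.18.

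Among the 20 other translocation genes, *Sec11c*, a signal peptidase subunit, had a log2 fold change of -0.34 by FPKM and -0.02 by coverage. Among the 20 other degradation genes, *Vimp*, a membrane partner of the ATPase that extracts substrates, was at 51.9, 59.9 and 50.8 FPKM in WT libraries and at 74.6, 58.1 and 63.3 FPKM in PCdel libraries, a log2 fold change of 0.26 (95% interval -0.05 to 0.57). Genes of transport out of the ER had a median of -0.02 over 20 genes. Of these, *Sec23b*, a coat protein of the transport vesicles, had 0.23, and *Tmed2*, a cargo receptor, had -0.40. *Tmed2* was at 126, 126 and 113 FPKM in WT libraries and at 125, 52.3 and 120.1 FPKM in PCdel libraries, so the difference lay in the single library QC8.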

How the data were processed

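RNA from small intestinal adenomas (3 ApcMin, PCdel and 3 ApcMin, WT libraries) was prepared by the authors with RNeasy columns and the TruSeq RNA kit and sequenced on a HiSeq2500. The methods name CLC Genomics Workbench for alignment and a normalization in MatLab without settings, which was not repeated. The authors deposited, per gene, FPKM (scaled for length and library size), TPM (scaled to the library) and mean read coverage (not scaled). Which program and annotation gave these tables, and the strand of the libraries, is not given in the sources used here, and gene positions match GRCm38. No read counts were used, so no count model was run and counting intervals were not derived. Depth was taken as the most common ratio of coverage to FPKM in a library, and scaled coverage is coverage divided by it.

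FPKM of entries with the same gene ID were summed. The 14240 genes whose FPKM averaged 1 or more were compared on log2(FPKM + 1), a scale that understates changes of weakly expressed genes, by limma 3.58.1 (R 4.3.3, moderated by eBayes, trend included), with Benjamini-Hochberg adjustment over all of them and a threshold of 0.05. On simulated data for this comparison (14240 genes), the test recovered 90% of 200 genes given a log2 change of 2 and called 15 unchanged genes. Without any change it called 0, and 5.09% of genes fell under an unadjusted p of 0.05. The planted change exceeded the largest log2 fold change of the 35 genes, 0.57, so the recovery does not apply to differences of their size. Simulated noise was independent between genes, without shifts shared by a library.

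The members, the other pathway lists and the markers were chosen with earlier results of these data known. The genes named are all 35 members, the 2 genes with the lowest unadjusted p of each other list and the markers. *Jchain*, *Epcam*, *Muc2* and *Spdef* were picked from the marker lists after their values were seen. Promoters came from RefSeq, and shared 31-base stretches and overlapping exons from GENCODE M21. Alternatives were TPM, quantile normalization, median centring, array quality weights, no trend, a pseudocount of 0.1, no low-value filter or one at a mean FPKM of 5, and each library left out. Scaled coverage was added after the data were seen.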

Additional observations from a re-analysis of the deposited data

How the results depend on the processing

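Of the 35 genes, 0 passed the adjusted threshold under any of the 15 alternatives, where the lowest adjusted p was 0.522, and likewise 0 of the other pathway genes passed. The number of all genes called was 2, and was 3 with array quality weights, 1 without the filter on low values and with median centring, and between 1 and 5 with each library left out (5 without WT library QC4). The number of the 35 genes at an unadjusted p under 0.05 was 1, and was 0 without the filter, with quantile normalization, with median centring and with no trend, and between 0 and 3 with each library left out (3 without QC4). Of 524 log2 fold changes of single members under the alternatives, 500 kept their sign and 24 did not, and 22 members kept it throughout. Signs turned with quantile normalization for *P4hb* (0.03), with median centring for *Herpud1* (-0.02), *Derl1* (-0.01) and *Sec61b* (0.00), and with array quality weights for *Atf4* (-0.04), *Dnajb11* (-0.02), *P4hb* (0.00), *Sec61a1* (-0.01), *Sec61b* (-0.10) and *Ssr1* (-0.04). With each library left out, the log2 fold change of *Ern2* ranged from -0.17 to 0.28, of *Herpud1* from -0.10 to 0.22, of *Derl3* from -0.02 to 0.25, of *Atf4* from 0.00 to 0.14, of *Canx* from -0.01 to 0.18, of *Pdia3* from -0.03 to 0.21, of *Sec61a1* from -0.05 to 0.16, of *Sec61b* from -0.09 to 0.13, of *Ssr1* from -0.06 to 0.12 and of *Ssr2* from -0.03 to 0.21. The cause of these turns was not tested. The median of the 35 genes stayed between 0.05 (without QC6) and 0.17 (TPM, where the median of all genes was 0.10). Scaled coverage was chosen after seeing the data and turned no sign, with *Ssr2* at 0.00. No paired analysis was possible because no label ties a library of one genotype to one of the other. The number of libraries limits these comparisons, and no count of reads was at hand.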
